A study of Mus musculus with 36 samples.

Results

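The 8 genes described here act in the making, breakdown and recapture of the transmitters glutamate and GABA: Gls2, Glud1, Got1, Abat, Aldh5a1, Slc38a1, Slc38a2 and Slc17a7. They were chosen by name, with earlier results of these data known, and found by symbol. All 8 are among the 55359 genes of the deposited table. They were measured in 36 single neurons of the mouse midbrain, each its own library, taken from 18 clones of 2 cells. A clone is the progeny of 1 radial glia progenitor, labelled at embryonic day 12 by MADM, a method in which recombination between chromosomes colours the descendants of a single dividing cell. The genotype was M11GTTG-Fz10-CreER in 22 cells of 11 clones and M11GTTG-Sox2-CreER in 14 cells of 7 clones, so every cell carried the M11GTTG cassettes and a recombinase of the CreER type. By tissue label, 22 cells of 16 clones came from sSC and 12 cells of 11 clones from dSC, taken as superficial and deep superior colliculus, and 2 Sox2-CreER cells of 2 clones came from PAG, taken as periaqueductal grey. The sSC cells were 15 of Fz10-CreER and 7 of Sox2-CreER, and the dSC cells 7 of Fz10-CreER and 5 of Sox2-CreER. The mice were of mixed C57/Bl6, FVB and CD1 background and both sexes. The labels name neither the age at collection nor the animal of each clone, so some clones may share an animal. P-values between tissues or drivers measure the spread between means per clone and tissue, and 9 clones gave a mean to both sSC and dSC. With clone as a block they measure the spread of the differences within clones. In the test of clones they measure the spread between siblings.

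In neurons, glutamate is made chiefly from glutamine. Glutamine enters through carriers of the SLC38 family, a mitochondrial glutaminase turns it into glutamate, and a vesicular glutamate transporter loads that glutamate into synaptic vesicles. GABAergic neurons convert glutamate into GABA with the glutamate decarboxylases Gad1 and Gad2, and GABA that is taken back up is degraded by GABA transaminase and succinic semialdehyde dehydrogenase, the route called the GABA shunt. In the superior colliculus, Slc17a6 (VGLUT2) marks glutamatergic neurons and Gad1 and Gad2 mark GABAergic neurons, so these 3 genes serve as the yardstick for the 8.

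Values are an expression signal per gene and cell, scaled per length as the authors' name for it (TPM) implies, that sums to 2000000 in every cell. Read depth is unknown, a listed 0 can be a failed capture, and the number of genes at a signal of 1 or more (genes detected) stands in for library quality: it ran from 2661 to 16769 with a median of 12058. The lowest was the sSC cell of clone B and the second lowest, at 6180, the sSC cell of clone H. Of 7 neuronal markers, Snap25 (299.8 to 4008), Syt1, Rbfox3, Nefl and Nefm were at 1 or more in all 36 cells, while Stmn2 was at 0 in 1 cell and Tubb3 in 3. Transcripts typical of glia were measured in most cells too: the astrocyte marker Gfap was at 1 or more in 32 cells and Aldh1l1 in 15, and the summed signal of the 8 astrocyte markers was 90.5 to 1781 in sSC (median 776), 427 to 2323 in dSC (median 1274) and 1700 to 1853 in PAG. Of these 8 astrocyte markers Aldoc had the highest median, 540, ahead of Glul at 124 and Slc1a3 at 42, so the sum leans on Aldoc. In the 2 PAG cells Slc1a3 was 0 and 0.544, Glul was 11.5 and 18.8, and 2 of the 8 markers were at 0 in both. The part of glial transcripts in the results on the 8 genes was not tested.

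Over the 36 cells, the median signal was 90.1 for Slc17a6, 216 for Gad1 and 154 for Gad2. Spearman's rho was 0.86 between Gad1 and Gad2, -0.76 between Slc17a6 and Gad1, and -0.61 between Slc17a6 and Gad2. The markers did not split the cells cleanly. Slc17a6 was at 10 or more in 29 of 36 cells, Gad1 in 32 and Gad2 in 29, so many cells held both kinds. The sSC cell of clone Q had 164 of Slc17a6 and 703 of Gad1, whereas the dSC cell of clone U had 0 and 322.5. Gad1os overlaps Gad1 on the opposite strand and was at 1 or more in 19 cells, so reads of that overlap cannot be told apart from Gad1.

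Got1, the cytosolic aspartate aminotransferase that exchanges amino groups between aspartate and glutamate and is part of the malate-aspartate shuttle, had the highest signal of the 8. It lay between 237 and 1250 with a median of 537 over the 36 cells, and no cell was under 100. In sSC it ranged from 237 to 1250 with a median of 481, in dSC from 322 to 1131 with a median of 626, and in PAG it was 882 and 1220. The sSC and dSC ranges overlapped over nearly their whole length, and both PAG cells lay in the upper part of the sSC range. Got1 was above Got2, the mitochondrial form of the enzyme, in 36 of 36 cells (median of Got2 89.7).

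Glud1, mitochondrial glutamate dehydrogenase, which interconverts glutamate and 2-oxoglutarate, followed with a median of 112 and a range of 6.73 to 491. It too was at 1 or more in all 36 cells. Its median was 112 in sSC (13.5 to 491) and 107 in dSC (6.73 to 178), against 177 and 127 in the 2 PAG cells. The highest value belonged to the sSC cell of clone B, the cell with the fewest genes detected, and the next, at 481, to the sSC cell of clone J. Glud-ps, a pseudogene of Glud1, was at 1 or more in 1 cell, with a signal of 3.5.

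Gls2, the liver-type glutaminase, was far more uneven. It was at 1 or more in 32 cells and listed at 0 in 4, with a median of 51.4 and a maximum of 339 over the 36 cells. In sSC the median was 23.5 (0 to 339) and in dSC 65.3 (0 to 177), while the PAG cells had 167 and 108. The 7 dSC cells of Fz10-CreER lay close together, between 52.3 and 177 with a median of 80.2, whereas the 5 dSC cells of Sox2-CreER had 0, 5.41, 10.3, 62.1 and 107. The sSC cells spread over both of these ranges, from 3 cells at 0 (those of clones B and H and 1 cell of clone S) to 339 in a cell of clone R. The difference between drivers within dSC was not tested. Spryd4 overlaps Gls2 on the opposite strand and was at 1 or more in 14 cells (at most 105). No source used here says whether counting used strand, so reads of the overlap cannot be told apart.

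Abat, GABA transaminase, which takes the amino group off GABA in the first step of its breakdown, reached 1 or more in 34 cells, its median was 51.0 and its maximum 123. The sSC median was 52.1 (0.845 to 113), the dSC median 50.7 (0 to 123), and the PAG cells had 52.4 and 15.3. The sSC and dSC ranges covered each other. The cells lowest in Abat were the dSC cell of clone D at 0 and the sSC cell of clone B at 0.845. The sSC cell of clone B was also the lowest of all in Got1 and at 0 for Gls2, Aldh5a1, Slc38a1 and Slc38a2, and the dSC cell of clone D was at 0 for Gls2 and Aldh5a1 and the lowest in Glud1.

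Aldh5a1, succinic semialdehyde dehydrogenase, which carries the carbon of GABA on to succinate, was lower and patchier. It reached 1 or more in 30 cells, was listed at 0 in 6, and had a median of 20.7 and a maximum of 236. Medians were 20.7 in sSC (0 to 236) and 24.9 in dSC (0 to 95.7), and the PAG cells had 13.97 and 8.64. Of the 6 cells at 0, 5 were sSC cells. The antisense gene 4932702P03Rik overlaps Aldh5a1, was at 1 or more in 27 cells and reached a higher median, 279, so part of the Aldh5a1 signal cannot be told apart from it.

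The glutamine carriers Slc38a1 (SNAT1) and Slc38a2 (SNAT2) take up glutamine together with sodium. Slc38a1 was the steadier, reaching 1 or more in 35 cells (median 33.9, maximum 96.3). Its median was 34.3 in sSC (0 to 76.8) and 26.9 in dSC (12.5 to 85.1). The PAG cells, with 86.2 and 96.3, held the 2 highest values of all 36 cells. Slc38a2, which is also known to be induced when amino acids are scarce, had a median of 63.8 and ranged from 0 to 695. Its median was 41.2 in sSC (0 to 498) and 81.3 in dSC (3.21 to 421), against 85.8 and 695 in PAG. The 7 dSC cells of Fz10-CreER ran from 19.5 to 421 (median 93.0), and the 5 of Sox2-CreER were 3.21, 16.6, 76.0, 86.7 and 91.3. All 3 cells under 1 were Fz10-CreER cells of sSC, from clones B, I and K. Slc38a2 was above Slc38a1 in 21 cells and below it in 14.

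Slc17a7 (VGLUT1), the vesicular glutamate transporter of cortical and hippocampal neurons, had the lowest median of the 8, 14.9, and did not exceed 75.4. It was at 1 or more in 31 cells. Medians were 20.5 in sSC (0 to 75.4) and 6.54 in dSC (0 to 57.1), and the PAG cells had 0.299 and 1.72. At least 10 was reached by 15 of 22 sSC cells, 5 of 12 dSC cells and neither PAG cell. Slc17a6 was above Slc17a7 in 27 of 36 cells. In the other 9 cells Slc17a7 was the higher: among them the sSC cell of clone B had 43.7 of Slc17a7 and 0 of Slc17a6, and the dSC cell of clone U had 50.3 and 0.

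Ranked by median, the order was Got1, Glud1, Slc38a2, Gls2, Abat, Slc38a1, Aldh5a1 and Slc17a7. Neighbours in it were often not separated cell by cell. Got1 was above Glud1 in 34 cells and below it in 2, and Glud1 above Slc38a2 in 25 and below it in 11. Gls2 exceeded Abat in 15 cells and was below it in 20, and Aldh5a1 exceeded Slc17a7 in 18 and was below it in 17, so these neighbours did not differ beyond their spread. Abat was above Aldh5a1, the next enzyme of the shunt, in 28 cells and below it in 7.

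**Figure D1:**
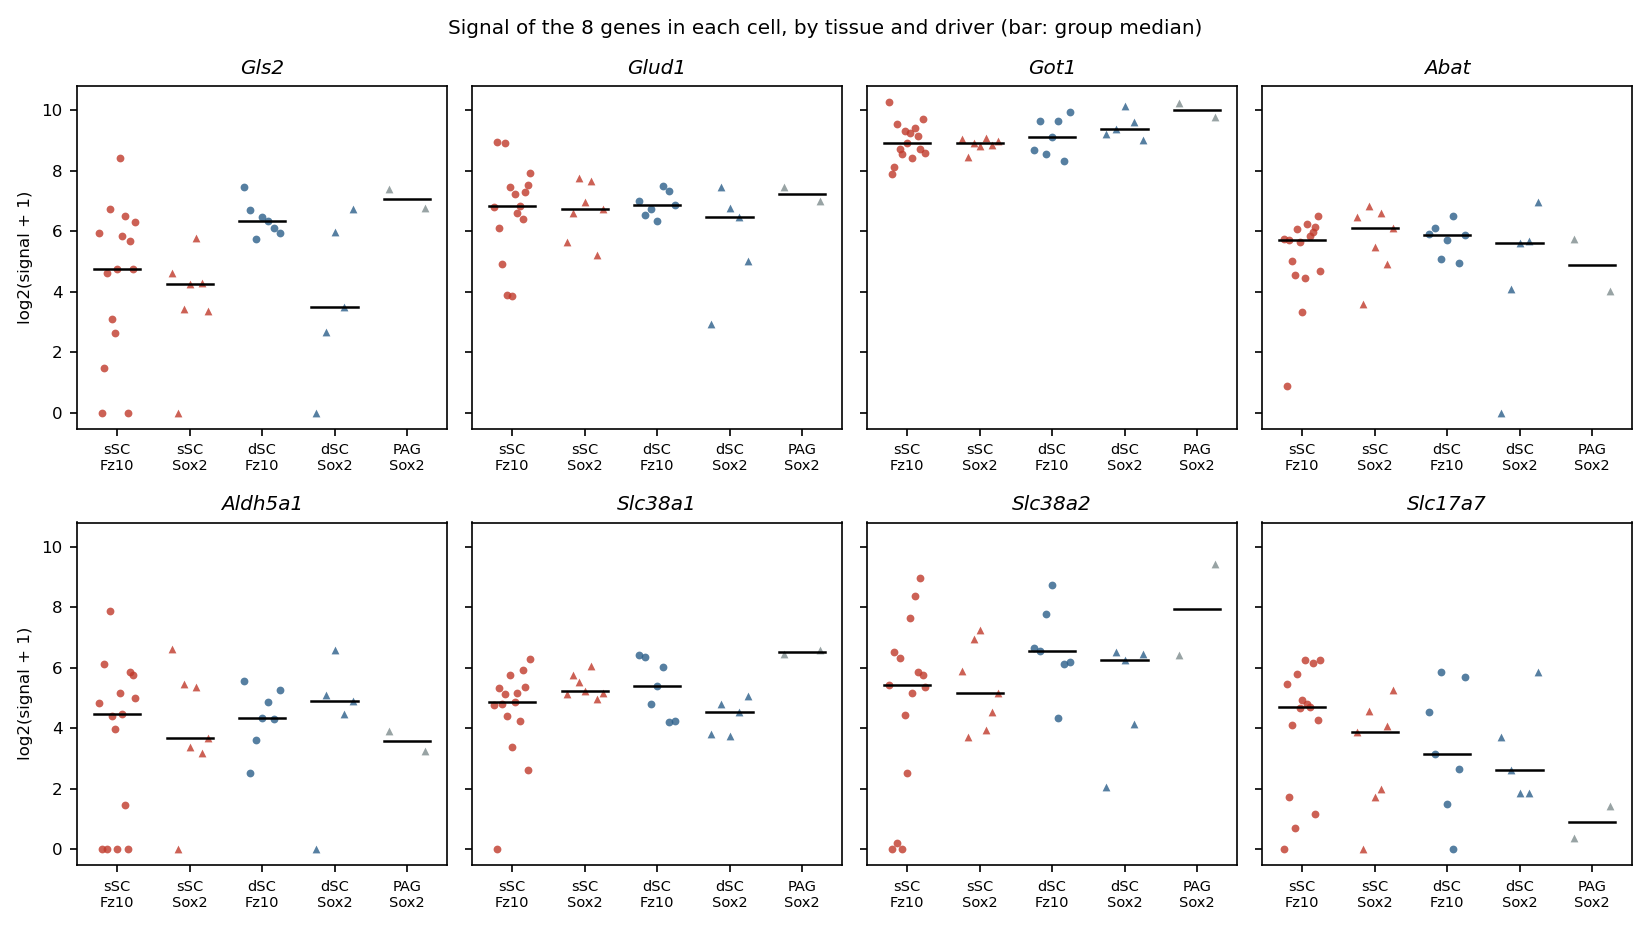
Signal of each of the 8 genes as log2(signal + 1), with 1 point per cell, in sSC, dSC and PAG cells split by driver (circles Fz10-CreER, triangles Sox2-CreER) and a bar at each group's median. Got1 stays within a narrow high band in every group, whereas Gls2, Aldh5a1, Slc38a2 and Slc17a7 run from 0 upwards in sSC, and the 7 Fz10-CreER cells of dSC cluster between 52.3 and 177 for Gls2.

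The bases just before the start sites are shown for the 2 vesicular glutamate transporters, whose signals lay far apart in most cells, and for Slc38a2, which had the largest difference between tissues. They are the 250 bases before the start in RefSeq's GRCm38.p6 table, written 5′ to 3′ on the gene's own strand, with the GC box GGGCGG or its reverse complement CCGCCC in capitals. That table held 5 of the 8 genes. Slc17a7 lies at chr7:45163671-45163920 on the + strand, Slc38a2 at chr15:96699729-96699978 on the - strand and the more upstream of the listed Slc17a6 entries at chr7:51621580-51621829 on the + strand.
Slc17a7: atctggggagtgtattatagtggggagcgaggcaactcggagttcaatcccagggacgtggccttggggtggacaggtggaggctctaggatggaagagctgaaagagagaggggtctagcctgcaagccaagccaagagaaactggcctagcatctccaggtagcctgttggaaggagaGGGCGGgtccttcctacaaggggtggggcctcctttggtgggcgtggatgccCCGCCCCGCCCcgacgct
Slc17a6: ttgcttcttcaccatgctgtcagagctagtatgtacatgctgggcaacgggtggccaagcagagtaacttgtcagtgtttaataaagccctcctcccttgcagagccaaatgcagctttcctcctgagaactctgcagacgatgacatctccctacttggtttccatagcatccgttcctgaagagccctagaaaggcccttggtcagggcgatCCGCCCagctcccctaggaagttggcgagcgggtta
Slc38a2: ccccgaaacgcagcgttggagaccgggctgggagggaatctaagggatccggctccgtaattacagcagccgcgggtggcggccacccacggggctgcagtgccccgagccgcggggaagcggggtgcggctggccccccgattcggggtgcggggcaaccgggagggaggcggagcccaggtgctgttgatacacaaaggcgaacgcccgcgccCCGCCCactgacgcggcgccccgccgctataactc
The Slc17a7 stretch held 3 GC boxes, of which 2 share a base in the last run of capitals, and 9 CpG dinucleotides at 61.2% G and C. The Slc17a6 stretch held 1 GC box and 7 CpG at 53.2%, and the Slc38a2 stretch 1 GC box and 30 CpG at 72.0%. The other listed Slc17a6 entry, not shown, held 0 GC boxes and 3 CpG at 41.2%. Over all 32851 promoters of the table, 32.7% held a GC box on either strand, and the medians were 6 CpG and 52.4%. No match to the CCAAT box, the TATA box TATAAA, the cyclic AMP response element TGACGTCA or the E-box CACGTG, on either strand, was found in the 3 windows shown. Among all promoters of that length 33.8% held the CCAAT box, 12.4% the TATA box, 1.55% the cyclic AMP element and 6.02% the E-box.

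Set against the yardstick genes, Abat had the highest correlations with the GABA genes among the 8. Its Spearman rho across the 36 cells was 0.38 with Gad1 and 0.43 with Gad2, above 97.1% and 97.4% of 14901 genes, and -0.18 with Slc17a6, above only 8.85% of them. With genes detected held constant, the values were 0.36, 0.37 and -0.24. Within sSC (22 cells) rho was 0.43 with Gad1 and 0.45 with Gad2, and within dSC (12 cells) 0.31 and 0.32, where it exceeded 73.7% and 74.2% of genes. The cells with the most Gad2 were not uniformly high in Abat. The PAG cell of clone D, highest in Gad2 with 1035, had 52.4 of Abat, 1 sSC cell of clone N with 822 had 96.2, 1 dSC cell of clone O with 605 had 50.4 and the dSC cell of clone B with 564 had 68.4. The dSC cell of clone J had 90.5 of Abat with 4.76 of Gad1, 34.6 of Gad2 and 763 of Slc17a6. These rho values, like all correlations here, describe 36 libraries that share clones in pairs and a fixed sum, and carry no p.

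Over all 36 cells, Slc38a1 was the only other member past 0.3 with a yardstick gene. Its rho was 0.395 with Gad2, above 96.0% of genes, yet 0.11 with Gad1 and 0.185 with Slc17a6. With Gad2 it was 0.33 within sSC and 0.35 within dSC, above 84.5% and 77.0% of genes. Aldh5a1, the enzyme after Abat, had 0.16 with Gad1, 0.16 with Gad2 and 0.00 with Slc17a6, where the medians over all genes were 0.05, 0.11 and 0.06. Its value with Gad1 exceeded 74.1% of genes, and within dSC it was 0.42 and exceeded 84.9%. Slc38a2 had 0.00 with Gad1, 0.15 with Gad2 and 0.03 with Slc17a6.

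The genes of glutamate supply had correlations with Slc17a6 inside the range of most genes. The rho with Slc17a6 was 0.14 for Gls2, 0.14 for Glud1 and 0.01 for Got1, and the middle 50% of all genes lay between -0.06 and 0.18. For Gls2 it was 0.38 within sSC (22 cells), above 89.1% of genes there, and -0.11 within dSC (12 cells), above 37.8%. With Gad1 the values were -0.16 for Gls2, -0.04 for Glud1 and 0.03 for Got1. The rho of Slc17a7 with Slc17a6 was -0.22 over all cells, above 5.64% of genes. It was -0.11 in sSC and -0.42 in dSC, above 16.4% and 8.95% of genes there. Over all cells Slc17a7 had 0.10 with Gad1 and 0.01 with Gad2.

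**Figure D2:**
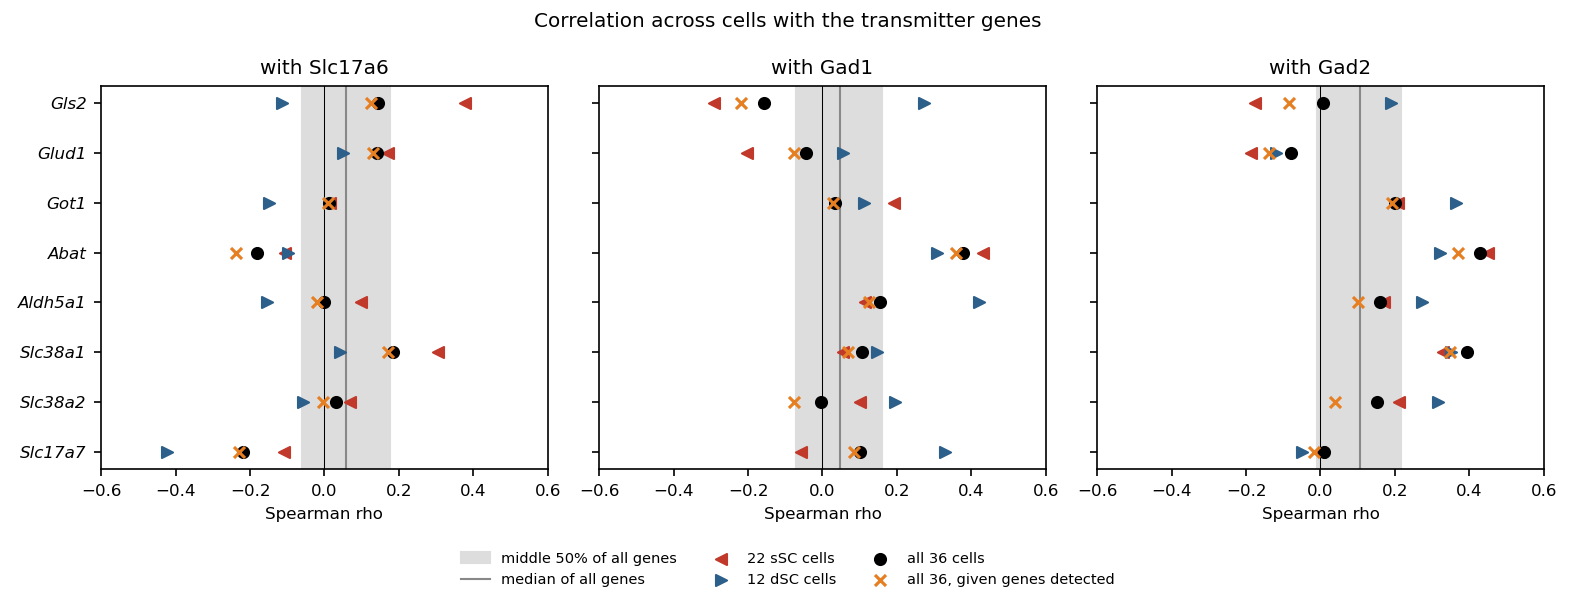
Spearman's rho of each of the 8 genes with Slc17a6, Gad1 and Gad2 over all 36 cells, over sSC cells alone (22), over dSC cells alone (12) and over all cells with genes detected held constant. The grey band is the middle 50% of all genes over the 36 cells and the grey line their median. Over all 36 cells Abat lies right of the band for Gad1 and Gad2 and left of it for Slc17a6. Slc38a1 lies right of it for Gad2 and, narrowly, for Slc17a6. Left of it lie also Slc17a7 for Slc17a6, Gls2 for Gad1 and Glud1 for Gad2. The values within dSC have a wider spread over all genes than this band, and there Abat exceeded 73.7% and 74.2% of genes.

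**Figure D3:**
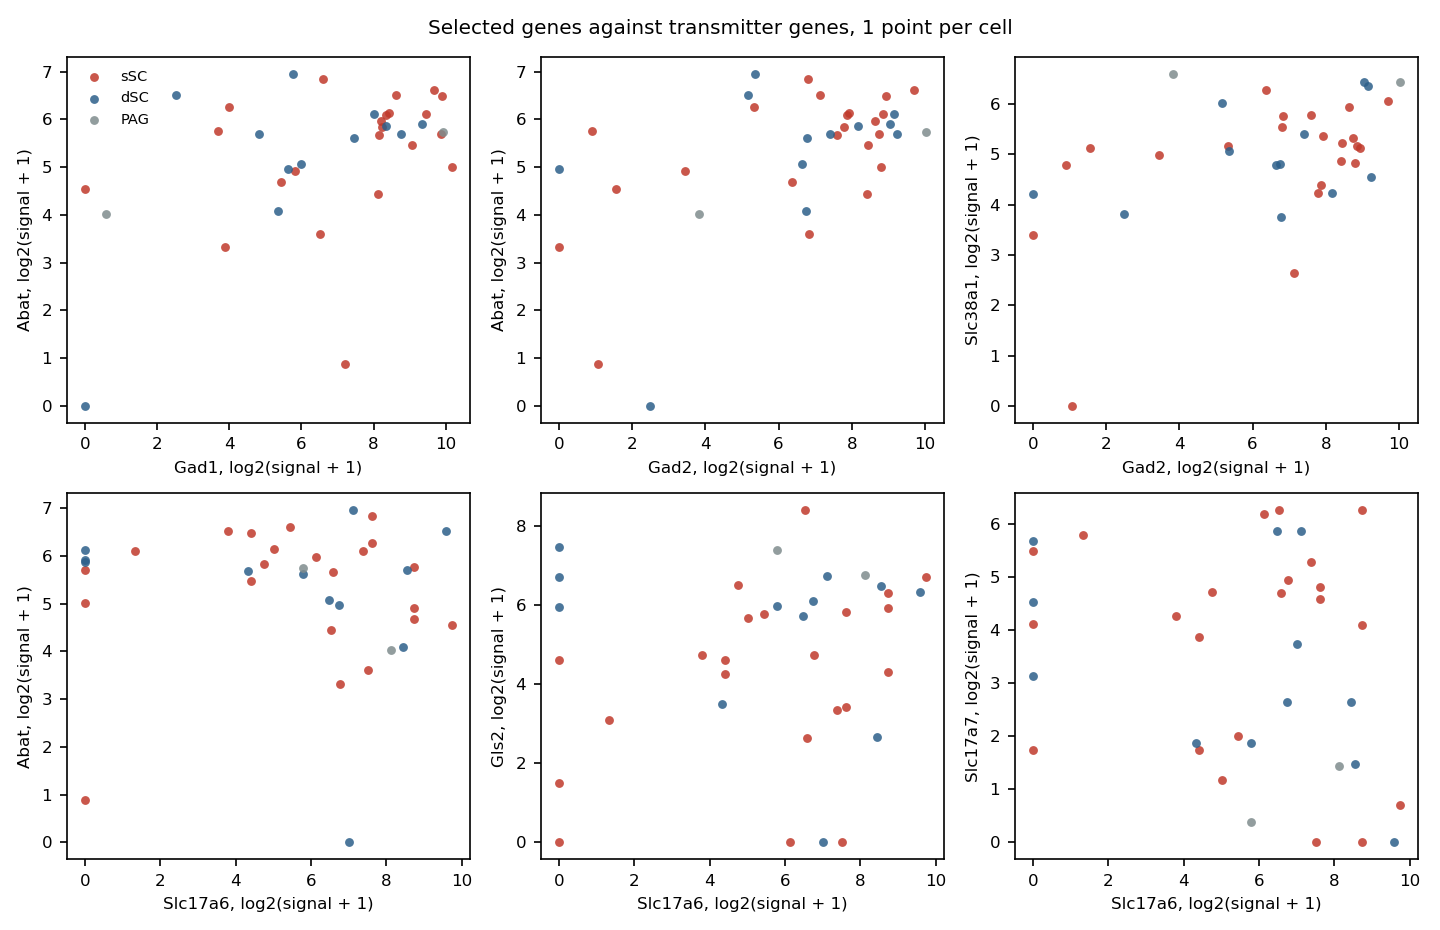
Each point is 1 cell, coloured by tissue, with log2(signal + 1) of a yardstick gene on the x axis and of Abat, Slc38a1, Gls2 or Slc17a7 on the y axis. Over the 36 cells rho was 0.38 for Abat with Gad1, 0.43 for Abat with Gad2, -0.18 for Abat with Slc17a6, 0.14 for Gls2 with Slc17a6 and -0.22 for Slc17a7 with Slc17a6, and the cells scatter widely in every panel.

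Within clones, siblings were compared by order. In 12 of 18 clones the sibling with more Gad1 also had more Abat, and in 6 the order was opposite. With Gad2 it was 11 and 6, and with Slc17a6 5 and 12, with 1 clone tied in each. The typical gene had 8 clones in the same order and 7 in the opposite one for Gad1 and for Gad2, and 7 and 8 for Slc17a6. For Slc38a1 and Gad2 the counts were 11 and 6, and for Glud1 and Gad2 they were 5 and 12. Siblings could differ widely: in clone R the sSC cells had 339 and 56.1 of Gls2, and in clone K 13.9 and 177 of Glud1.

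Among the 8 genes, 22 of 28 pairs had a rho above 0, from -0.26 to 0.52 with a median of 0.14, and 18 of 28 with genes detected held constant. This is near the background, since the median rho of a member with all 11076 genes compared lay between -0.0016 for Slc17a7 and 0.17 for Abat. Gls2 and Slc38a2, glutaminase and glutamine carrier, were the closest pair, with 0.52 and, given genes detected, 0.43. Abat and Aldh5a1, the consecutive enzymes of the shunt, had 0.43 and 0.36. Both Slc38a2 and Abat also correlated with genes detected itself, with rho of 0.47 and 0.45 against 0.28 for the typical gene, and Slc38a2, Got1 and Gls2 had 0.36, 0.35 and 0.34 with the astrocyte marker sum, against 0.11. Within sSC these were 0.41, 0.05 and -0.05, and within dSC -0.10, 0.46 and 0.11.

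A list of 41 further glutamate and GABA genes, of which 37 passed the filter, held transporters with larger correlations with the yardstick genes than any of the 8 had. The genes Slc32a1 and Slc25a12, named next, were chosen after their values were seen. Slc32a1, the vesicular GABA transporter, had a rho of 0.77 with Gad1, 0.72 with Gad2 and -0.64 with Slc17a6. Slc25a12, the mitochondrial aspartate-glutamate carrier of neurons, had the highest value of the 37 with Slc17a6, 0.475, and -0.28 with Gad1. Over the 37 genes the median was 0.07 with Gad1, 0.16 with Gad2 and 0.07 with Slc17a6.

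The comparison of sSC with dSC asked whether the genes differ between the superficial and deep colliculus. Of the 8 genes, none passed the test: limma on means of log2(signal + 1) per clone and tissue (16 sSC against 11 dSC means) gave adjusted p between 0.971 and 0.994, with p adjusted by Benjamini-Hochberg over all genes tested. Of the 14613 genes tested 0.0% were called at an adjusted p under 0.05, and 754, or 5.16%, had an unadjusted p under 0.05. Slc38a2 and Gls2 had the largest differences. Slc38a2 averaged 4.73 ± 2.37 in sSC and 6.06 ± 1.75 in dSC (log2 scale, SD, n = 16 and 11 clone means), a difference of -1.33 (SE 0.83, 95% interval -3.01 to 0.34), and of -0.77 without clone I. Gls2 averaged 4.07 ± 2.17 in sSC and 5.36 ± 2.19 in dSC, a difference of -1.29 (SE 0.84, interval -2.99 to 0.42). The rest lay between -0.53 for Aldh5a1 (-0.95 without clone D, and from -0.34 to -0.28 without clone H, I, L or S) and 0.29 for Glud1, with -0.30 for Got1, -0.29 for Slc38a1, -0.08 for Abat and 0.19 for Slc17a7. As a list, 2 of the 8 lay above 0 and 6 below, with a median difference of -0.30. Over all genes tested 32.7% lay above 0 and the median was -0.31. Quantile normalization moved that median to -0.01 and gave -1.11 for Slc38a2, -1.24 for Gls2 and 0.36 for Abat, so the sign of Abat depended on the scaling.

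In 9 clones 1 sibling was in sSC and the other in dSC. Slc38a2 was lower in the sSC sibling in 8 of these clones, with a median of 40.1 in the sSC siblings and 91.3 in the dSC siblings. The exception was clone J, with 80.1 in sSC and 19.5 in dSC. Abat was lower in the sSC sibling in 7 clones, Gls2, Got1 and Aldh5a1 in 6, Glud1 and Slc38a1 in 5 and Slc17a7 in 3, where the typical gene was lower in 5 and higher in 3. The sSC sibling had more genes detected in 2 of the 9 clones, with a mean difference (sSC minus dSC) of -2868. With clone as a block, 1 of 14613 genes was called, or 0.00684%, and it was not a member. The unadjusted p was under 0.05 for 8.99% of genes and for 1 of the 8, Slc38a2, whose difference was -2.44 (SE 1.02, 95% interval -4.58 to -0.30) with a limma adjusted p of 0.524. Gls2 had -1.83 (SE 0.94, adjusted p 0.572). With genes detected as a covariate the differences were -0.62 for Slc38a2 and -0.69 for Gls2 (adjusted p 0.994 each in limma), and 5 of the 8 lay above 0.

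**Figure D4:**
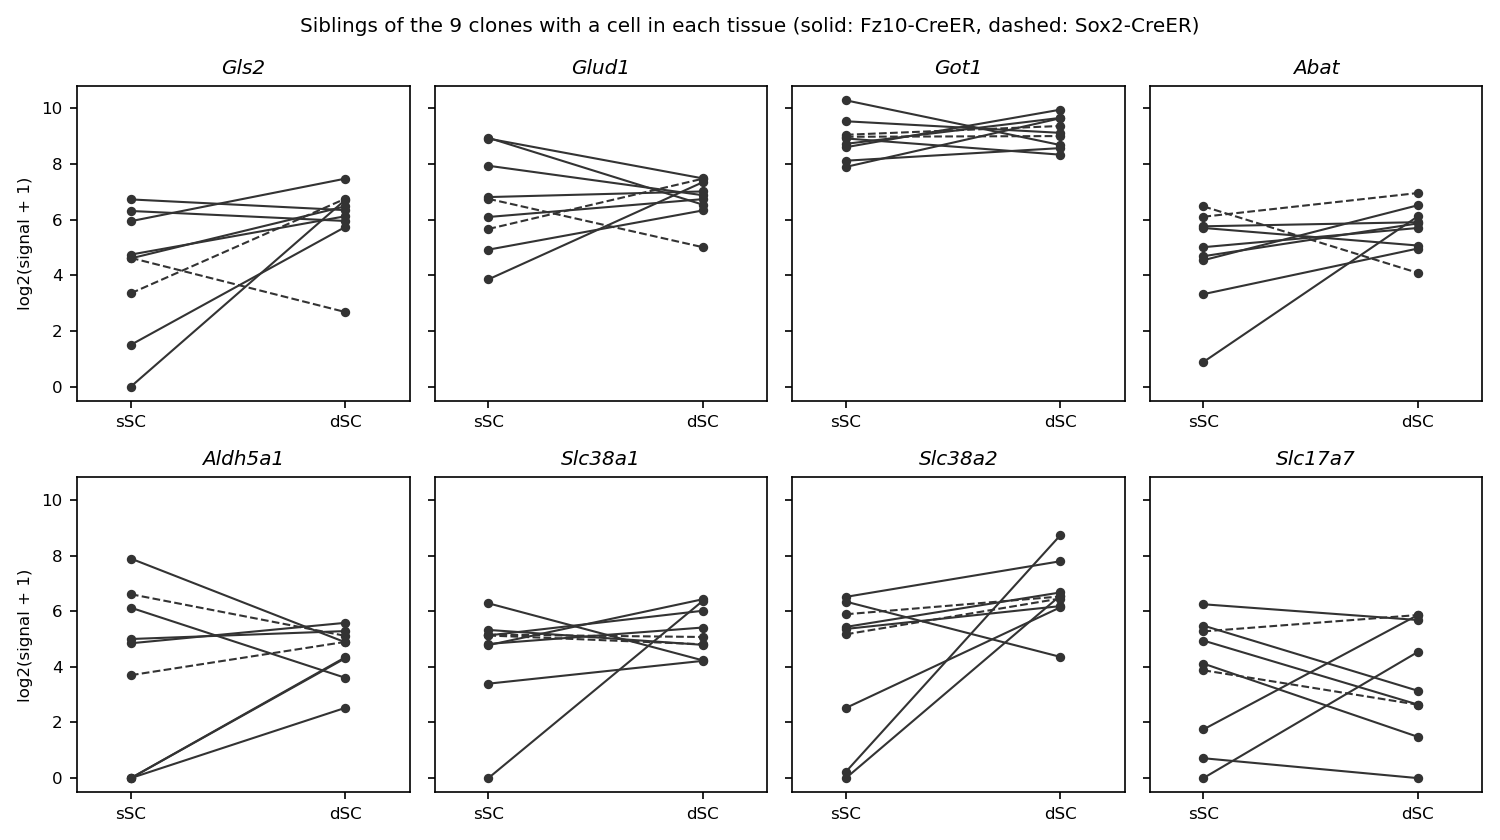
Each line joins the sSC cell (left) and the dSC cell (right) of 1 of the 9 clones that had siblings in both tissues, as log2(signal + 1), solid for Fz10-CreER and dashed for Sox2-CreER. For Slc38a2 the line falls towards dSC in 1 clone and climbs in 8, whereas lines for Glud1 and Slc38a1 go both ways.

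The drivers were compared within sSC, where 11 Fz10-CreER and 5 Sox2-CreER clone means were available. None of the 8 genes was called, with limma adjusted p of 0.9999 for each. Of 14320 genes 0.0% were called, and 587 genes, or 4.1%, had an unadjusted p under 0.05. Fz10-CreER minus Sox2-CreER was 1.02 for Gls2 (SE 1.21, 95% interval -1.45 to 3.49), 0.76 for Slc17a7, 0.17 for Glud1 and 0.08 for Got1. It was -0.22 for Aldh5a1, -0.73 for Slc38a2, -0.77 for Abat and -0.94 for Slc38a1 (SE 1.03, interval -3.05 to 1.17). Single clones weighed on these values: without clone H, Gls2 was 0.17, Abat -1.27, Slc38a2 -1.10 and Slc17a7 -0.0058, and without clone B, Abat was -0.37, Slc38a1 -0.50 and Slc38a2 -0.28. Slc38a2 was also -0.30 without clone I and -0.26 without clone M, and Slc17a7 was 1.15 without clone A and 1.31 without clone Q. With all clones, 4 lay above 0 and 4 below, where 34% of all genes lay above 0 and their median was -0.38. Slc38a1 averaged 4.45 ± 1.65 in Fz10-CreER clones and 5.39 ± 0.26 in Sox2-CreER clones (SD, n = 11 and 5), and the Fz10-CreER side includes the clone B cell at 0.

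**Figure D5:**
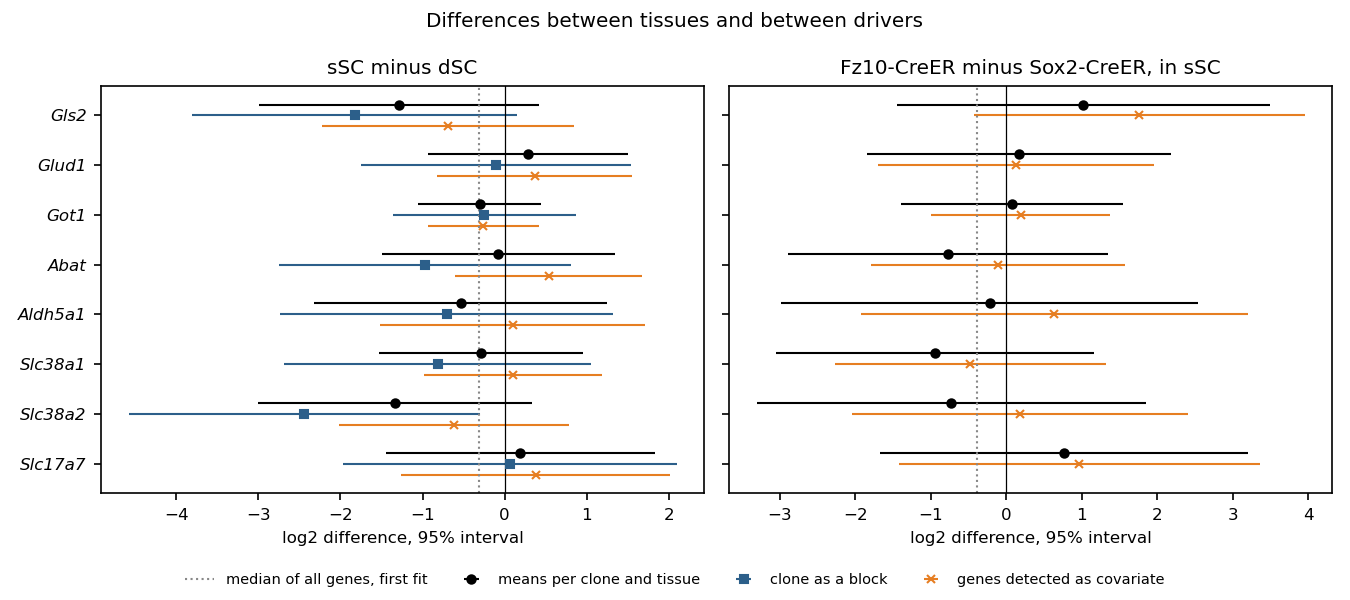
Differences in log2(signal + 1) with 95% intervals for the 8 genes, sSC minus dSC on the left and Fz10-CreER minus Sox2-CreER within sSC on the right, from means per clone, with clone as a block (left only) and with genes detected as a covariate. The dotted line is the median of all genes in the fit of clone means. All intervals cross 0 except that of Slc38a2 with clone as a block, from -4.58 to -0.30.

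Whether siblings resemble each other was tested by an F test over the 16 clones without a PAG cell, with tissue as a covariate. It called 3 of 15132 genes, or 0.0198%, and none of the 8; 7.8% of genes and none of the 8 had an unadjusted p under 0.05. The correlation between siblings was highest for Aldh5a1, 0.39 (unadjusted limma p 0.0824, adjusted 0.660), and for Slc17a7, 0.21, and lowest for Slc38a1, -0.31. The other 5 lay between -0.24 for Got1 and 0.02 for Slc38a2, and the median over all genes was 0.01. The adjusted p of the 8 lay between 0.660 and 0.996.

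In the wider list of 41 pathway genes, 37 could be tested between tissues and none was called. Of these, 13 lay above 0 and 24 below with a median of -0.18, and 1 gene had an unadjusted p under 0.05. The lowest differences, sSC minus dSC, were -1.48 for Slc1a4 and -1.23 for Slc1a5, both neutral amino acid transporters (limma adjusted p 0.971 and 0.941). The highest were 0.94 for Slc25a13, the aspartate-glutamate carrier citrin, 0.74 for Slc32a1 and 0.66 for Slc38a7, a lysosomal glutamine carrier. Slc17a8, Slc38a5, Slc38a11 and Slc6a13 were too rarely at 1 or more to be tested, in 2, 0, 4 and 8 cells. Between drivers in sSC, 11 of 36 lay above 0 and 25 below with a median of -0.82, against 34% of all genes above 0 and a median of -0.38. With genes detected as a covariate the median of the list was -0.24. None was called and 3 had an unadjusted p under 0.05. The lowest were Slc38a6 at -3.55 (SE 0.93, limma adjusted p 0.619), Slc25a18, a mitochondrial glutamate carrier, at -3.47 and Asns, asparagine synthetase, at -2.46. The highest were Slc25a22, also a mitochondrial glutamate carrier, at 1.10, Slc25a13 at 0.98 and Ogdh, a subunit of the 2-oxoglutarate dehydrogenase complex, at 0.52. The clone test called none of 38.

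The genes whose pattern over the 36 cells was most like each member's, among the 11076 at 1 or more in at least 18 cells, are named here, 3 for each. For Gls2 they were Rnf146 (rho 0.75), Rpgr (0.72) and Vwc2l (0.70), and for Slc38a2 they were Vezf1 (0.72), Phf8 (0.67) and again Vwc2l (0.65). For Glud1 they were Fkbp15, Ccdc107 and Sdhc, a subunit of succinate dehydrogenase, with rho of 0.61, 0.58 and 0.58. Got1 had Ube2m (0.65), Lrrtm1 (0.64) and Slc25a3, the mitochondrial phosphate carrier (0.62). Abat had Atp13a1 (0.71), Dzank1 (0.70) and Mcf2l (0.67), and Aldh5a1 had Ranbp3 (0.71), Efr3a (0.70) and 1110059G10Rik (0.69). Slc38a1 had Cit (0.76), Spata7 (0.70) and Mfsd14a (0.70). Slc17a7 had the mitochondrially encoded mt-Nd6 (0.69), Sphkap (0.69) and Has2os (0.69). Vwc2l is shared by Gls2 and Slc38a2, the pair of members that were closest to each other.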

How the data were processed

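Per the labels' protocols, each neuron gave a polyA library by the SMART-Seq Single Cell PLUS chemistry. The submitters' processing notes name STAR 2.7.9a, R 4.0.3 and GRCm39 without their roles. No source used here gives the counting program, its annotation, its use of strand or the formula. The deposited table holds a normalised signal, called TPM of exon plus intron by the authors. Its total is 2000000 in every cell. The plan had assumed a TPM-like value, and tests on a log scale suit both units. Read depth is unknown, so counting error cannot be given, and precision rests on how many cells and clones there were.

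Gene identifiers were matched to symbols in GENCODE M21, an annotation of GRCm38: 52083 identifiers matched, among them 30717 of 31169 with any value above 0. No gene coordinates came from it. Promoter sequences and their positions are those of RefSeq, GRCm38.p6.

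Signals were log2-transformed after adding 1. A gene was tested if 25% or more of the cells compared had a signal of 1 or higher. All 8 genes passed in all 3 comparisons. Tests used limma 3.58.1 in R 4.3.3 (trend and robust, Benjamini-Hochberg, threshold 0.05), two-sided, on means per clone and tissue. The clone test was a moderated F test over cells, with tissue as a covariate. The code was tested on simulated data. Clone pairs the tissues because sibling cells arise in the same animal, although the deviations of paired siblings from their group means had correlations of only -0.0253 to 0.0628. Correlations were computed with scipy 1.17.1. The 8 genes, the wider list and the marker lists were chosen with earlier results of these data known. Named were the 8 genes, the 3 transmitter genes, the 3 genes nearest to each member, and from the wider list the 3 highest and 3 lowest differences and any gene called, of which some are not reported here. Alternatives changed the pseudocount, filter, scaling, covariates, moderation, clone term and cells used.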

Additional observations from a re-analysis of the deposited data

Results flagged for a closer look

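Within a tissue and driver, the lowest or highest cell of a group of 4 to 10 cells was set against the gap to its neighbour, on the log2(signal + 1) scale. Of 24 combinations of gene and group, 2 held a cell that stood apart, and chance gives about 1 in 20. Both were the same cell, the sSC cell of clone H among the 7 sSC cells of Sox2-CreER. Its Gls2 was 0, where the other cells had 9.23 to 53.8, and the gap took 0.581 of the range of log2(signal + 1), against a critical value of 0.568. Its Got1 was 351, where the other cells had 453 to 544, and the gap took 0.579 of the range on that scale. On the signal itself the gaps took 0.172 and 0.525 of the range, under the critical value. This cell had 6180 genes detected, the second lowest of the 36, and was also at 0 for Aldh5a1 and Slc17a7. The part of library quality in these values was not tested.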

How the results depend on the processing

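Under the other settings tried, the 8 genes gave 208 results in the 3 comparisons. None was called under any of them (lowest limma adjusted p 0.524), and 14 changed sign. Their differences in the first fit ranged from -0.73 for Slc38a2 between drivers to 0.29 for Glud1 between tissues. The cause of these changes was not tested. For sSC minus dSC, Glud1 was -0.10 with clone as a replicate block. Abat was 0.15 with a pseudocount of 0.1, 0.36 after quantile normalization, 0.54 with the covariate genes detected and 0.21 without the sSC cell of clone B. With that covariate Aldh5a1 was 0.098 and Slc38a1 0.10, and without the clone B cell Slc38a1 was 0.029. For Fz10-CreER minus Sox2-CreER, Glud1 was -0.051 without the clone B cell, and Slc38a2 0.18 with the covariate. Aldh5a1 was 0.046 with a pseudocount of 10, 0.48 with quantile normalization, 0.64 with the covariate and 0.14 without the clone B cell. Leaving out each clone gave, for sSC minus dSC, Glud1 -0.058 to 0.57, Abat -0.59 to 0.30, Slc38a1 -0.47 to 0.16 and Slc17a7 -0.034 to 0.56. For the drivers it gave Glud1 -0.057 to 0.46, Got1 -0.059 to 0.18, Aldh5a1 -1.17 to 0.48 and Slc17a7 -0.0058 to 1.31. Over all genes, called counts moved: sSC minus dSC gave 1 in place of 0 with a pseudocount of 10, quantile normalization or the clone block, and 0 to 1 without each clone (1 without B, D, N, O or T). The drivers gave 1 with a pseudocount of 10 and 0 to 5 without each clone (5 without H, 1 without F). The clone test gave 6 with a pseudocount of 0.1, 60 with no filter on low values, 1 under plain moderation, and 2 to 5 without each clone (5 without S), in place of 3. The clone block changed no call of the 8 genes. Of 144 correlations under alternatives, 34 moved by 0.1 or more, 25 of them among the 48 within a tissue, where few cells remain. Unknown read depth and 9 paired clones limit what differences could be seen.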
